A study of Mus musculus with 2 samples.

Results

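Enterocytes at the tip of the intestinal villus were picked out of a single-cell RNA-seq data set of mouse intestinal epithelium, where they made up 240 of 12554 barcodes kept after quality filtering, 123 in the wild-type library and 117 in the transgenic library. A barcode was chosen by its own measured counts. It needed enough UMIs (unique molecular identifiers, each standing for 1 captured mRNA molecule), a minimum that left barcodes of 1355 UMIs in WT and 1356 in MG53-TG as the shallowest kept. It needed 200 genes or more, no more than 25% of UMIs from mitochondrial genes, and a UMI of at least 3 of the 5 gate genes Ada, Nt5e, Slc28a2, Clca4a and Slc23a4. Fabp6 had to stay under 0.1% of UMIs, the goblet genes Muc2, Fcgbp, Clca1, Zg16 and Tff3 together under 0.5%, and the Paneth genes (all Defa genes plus Lyz1) under 5%, and no UMI of the T cell genes Cd3e, Cd3d and Cd3g was allowed. The levels of these genes are therefore given as a description and support nothing.

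Both libraries were made from mice on day 7 of 2.5% dextran sodium sulfate (DSS), a detergent-like polysaccharide that injures the gut epithelium. The WT library came from wild-type mice. The MG53-TG library came from mice that overexpress MG53 (gene Trim72), a membrane repair protein otherwise found mainly in striated muscle. Crypts were isolated, dissociated and sorted for EpCAM-positive, 7-AAD-negative (epithelial, viable) cells, so that tip cells entered only as far as they came along in a crypt preparation. The labels do not give an age or the number of mice behind a library. The study states a number of mice per group for its single-cell experiment, but the barcodes here carry no mouse of origin. There was no library from untreated mice, and there was 1 library per genotype. No difference between the genotypes can therefore be tested, and all intervals below are 95% intervals that cover counting error only. The libraries also differed in the version of Cell Ranger, the counting program, and in whether empty barcodes had been removed, and these differences cannot be told apart from the genotype.

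Enterocytes are born in the crypt, climb the villus over a few days and are shed from its tip. On the way they switch programs, from antimicrobial and mitochondrial genes at the villus base, through amino acid and sugar transport, to a late program at the tip that includes cell adhesion, apolipoprotein and purine handling genes. The gate genes belong to that last program. Ada deaminates adenosine, Nt5e (CD73) makes adenosine from AMP at the cell surface, Slc28a2 carries purine nucleosides into the cell, Clca4a is a member of the calcium-activated chloride channel regulator family, and Slc23a4 belongs to the nucleobase and ascorbate transporter family.

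In WT tip enterocytes Ada was detected in 95.1% of cells, Clca4a in 90.2%, Slc23a4 in 85.4%, Slc28a2 in 65.9% and Nt5e in 36.6%. In MG53-TG the shares were 96.6%, 95.7%, 91.5%, 69.2% and 50.4% in the same order. Ada, at chromosome 2:163726584-163750239 on the minus strand (GRCm38), had 890 CPM (its share of the summed UMIs in parts per 1000000) in the WT members and 1966 CPM in the MG53-TG members, against 15.4 and 9.77 CPM in the other kept barcodes. Clca4a, at chromosome 3:144952480-144975045, had 1275 and 2755 CPM against 16.4 and 9.94 CPM. Reads of Clca4a and its close paralog Clca4b may be split by the counting, so their separate levels are uncertain. Kept barcodes in which goblet genes made up 5% of UMIs or more, cells that should lack the program, had an Ada UMI in 10.2% of WT and 12.3% of MG53-TG barcodes, at a median depth of 14827 and 18444 UMIs. In WT barcodes under 100 UMIs, which hold mostly free RNA, Ada made up 134 CPM and Clca4a 62.4 CPM, more than in the other kept barcodes. The deep WT members described next had 724 CPM of all 5 gate genes together, and the part of free RNA in their detection was not tested.

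All 5 gate genes were detected together in 26 WT and 45 MG53-TG members, 4 in 38 and 31, and exactly 3, the least the rule admits, in 59 and 41. Just outside the rule lay the 221 WT and 140 MG53-TG barcodes with 2 gate genes that were otherwise free of the excluded genes. They held 182 and 161 CPM of gate genes, against 866 and 2123 CPM in the members with 3. The most common set of exactly 3 was Ada, Clca4a and Slc23a4, in 26 WT and 24 MG53-TG cells. No tip barcode sequence was kept in the other library as well, while 8 sequences were kept in both libraries among all cells.

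The members were of unequal kinds. WT members had a median depth of 4995 UMIs and MG53-TG members of 5057 UMIs, compared with 14566 and 18436 in the other kept barcodes, and the median mitochondrial share was 8.29% and 9.16% against 4.45% and 3.93%. Below 10000 UMIs, a split chosen after the depths were seen, lay 85 WT and 94 MG53-TG members, and in them gate genes took a median 0.744% and 0.938% of a cell's UMIs. The 38 WT and 23 MG53-TG members at or above 10000 UMIs had medians of only 0.045% and 0.081%. These deep members held 74.7% of all tip UMIs in WT and 55.0% in MG53-TG, so sums over the members lean on them, and more so in WT. Cycling genes were at 1684 CPM in the deep WT members and 102 CPM in the shallow ones, and at 1196 and 18.0 CPM in MG53-TG. Lipid absorption genes ran the other way, at 19953 CPM in the deep and 91157 CPM in the shallow WT members, and 38686 and 81906 CPM in MG53-TG. Many results between the genotypes are therefore also given for other views of the members. These are the members with 4 or 5 gate genes (64 WT, 76 MG53-TG), those under 10000 UMIs, or each cell weighted equally. Comparisons with other barcodes are sums over all members unless stated.

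**Figure D1:**
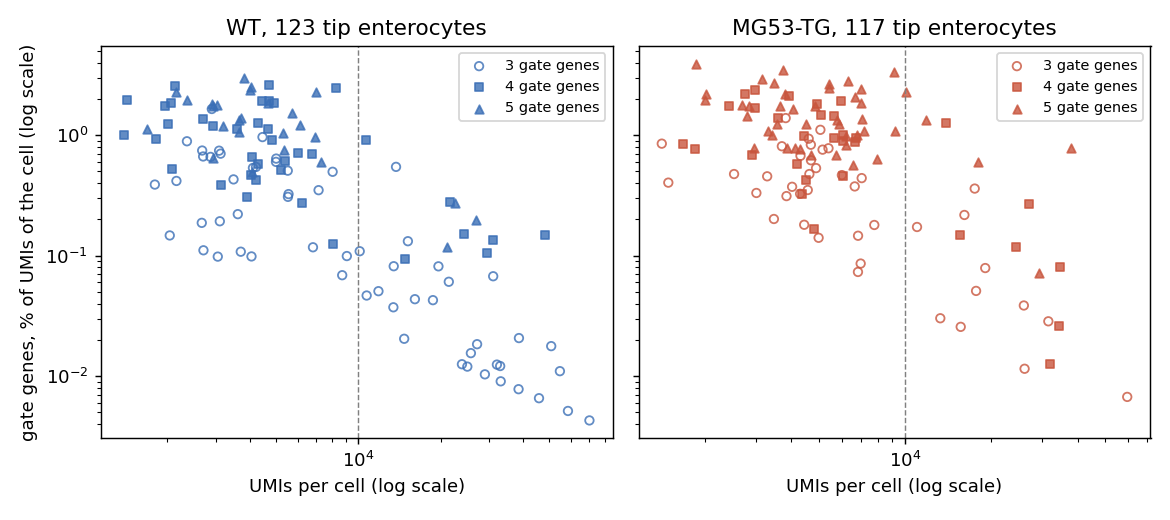
Each point is 1 tip enterocyte, with its UMIs on the x axis and the share of them from the 5 gate genes on the y axis, both on log scales; the marker gives how many gate genes were detected and the dashed line stands at 10000 UMIs. Most members are shallow and rich in gate genes, and most WT members to the right of the line have exactly 3 gate genes at a small share of UMIs.

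The label was checked against markers outside the rule. Of 20 other villus tip genes taken from general knowledge of the villus axis, 19 had at least 10 UMIs, and 7 were higher in tip enterocytes than in the other kept barcodes by a log2 ratio of 1 or more in both libraries, while 1, the protease Tmprss2 at -1.20 and -2.14, was lower by as much. Over 9496 genes with the same minimum of UMIs, 7.92% were higher and 1.94% lower. The keratin Krt20 had 1047 CPM in WT tip enterocytes against 240 CPM elsewhere, and 1872 against 273 CPM in MG53-TG. Npc1l1, the cholesterol uptake receptor, had 304 against 65.5 CPM in WT and 507 against 67.4 CPM in MG53-TG. The other 11 did not pass in both libraries, among them Klf4, a transcription factor of differentiated epithelium, at log2 ratios of 0.93 and 1.08, Id3 at -0.06 in WT and -0.22, and Plac8 at -0.28 and -0.86. The label was thus carried by part of the tip list, and genes of other cell states were present beside it. Cycling genes summed to 1284 CPM in WT tip enterocytes against 707 CPM elsewhere, and to 666 against 619 CPM in MG53-TG, and stem and crypt genes to 758 against 744 CPM and 1005 against 804 CPM. Both were concentrated in the deep members. The other villus tip genes did not set the deep members apart. They summed to 4509 CPM in the deep WT members, against 10002 CPM in the shallow ones and 5681 CPM in WT barcodes with no gate gene, and to 6229 CPM, against 9634 and 6716 CPM, in MG53-TG. The name tip enterocyte therefore rested on the shallow members by these markers. Tuft markers summed to 408 UMIs in WT and 376 in MG53-TG, of which 3 cells held 97.8% and 94.4%, enteroendocrine markers to 625 and 76 UMIs, and Paneth markers, capped by the rule, to 2274 and 717 UMIs. Stromal and endothelial markers summed to 4 UMIs in WT and 0 in MG53-TG, with 7 and 8 of 8 genes at 0, and myeloid markers to 6 UMIs and 1 UMI, with 6 and 7 of 8 at 0. The 12 T cell markers other than the Cd3 genes, which the rule holds at 0, summed to 28 and 22 UMIs, with 4 and 9 at 0.

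Summed markers of small intestinal and of colonic absorptive cells were both higher in tip enterocytes than in the other kept barcodes, with most of the colonic UMIs from Clca4b. Small intestinal absorptive markers had a median of 299 UMIs per WT cell and 334 per MG53-TG cell, and colonocyte markers 17 and 16 UMIs. The small intestinal markers summed to 32934 CPM in WT tip enterocytes against 9183 CPM elsewhere, and to 52772 against 10725 CPM in MG53-TG. The 17 colonocyte markers summed to 2048 against 537 CPM and 2692 against 538 CPM, with 6 of them at 0 in the WT members and 7 in the MG53-TG members. Clca4b held 2031 of their 2873 UMIs in WT and 1723 of 2655 in MG53-TG, and the colonic carbonic anhydrase Car1 was at 0 in both libraries. Over the 7 measured colonocyte markers the median log2 ratio was 0.56 in WT and 1.14 in MG53-TG, and 3 passed 1 in both libraries, beside 7.92% of all genes. Since the small intestinal genes are far more abundant in all kept barcodes, these sums do not give a share of colonic cells. Slc10a2, the bile acid carrier of the ileum, was detected in 41 WT and 49 MG53-TG cells, and Lct, the lactase of the more proximal gut, in 63 and 41. Both were detected in the same cell in 14 WT and 7 MG53-TG cells. Slc10a2 stood at 136 CPM in WT tip enterocytes against 21.8 CPM in the other kept barcodes, and at 182 against 11.9 CPM in MG53-TG. Fabp6 was limited by the rule, so the share of distal cells among the members was set in part by it.

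Among 2247 genes with at least 50 UMIs in the tip members and 50 CPM in each library's tip members, 351 (15.6%) were higher in tip enterocytes than in the other kept barcodes by a log2 ratio of 1 or more in both libraries, and 16 (0.712%) were lower by as much. The minimum was set on tip counts alone, so genes low in tip enterocytes could enter less easily, and the 2 counts are not to be set against each other. No test stands behind these counts. Ly6m, a member of the Ly6 surface protein family, led the 20 highest genes outside the rule. It had 765 CPM (720 to 812) in WT tip enterocytes and 13.9 CPM in the other kept barcodes, and 2041 against 8.61 CPM in MG53-TG, a log2 ratio of 5.68 and 7.73. Pmp22, a membrane protein of cell junctions and myelin, followed at 337 against 9.74 CPM in WT and 614 against 8.09 CPM in MG53-TG. Both genes were found widely among the members, Ly6m in 94 WT and 100 MG53-TG cells and Pmp22 in 81 and 88.

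Lipoproteins stood high among the rest. Apoa4, an apolipoprotein of chylomicrons, reached 4581 CPM in the WT and 8231 CPM in the MG53-TG members, against 416 and 469 CPM elsewhere, and was detected in 115 cells of each library. Apob, the structural protein of chylomicrons, had 3622 and 5834 CPM against 392 and 407 CPM. Lpin2, a phosphatidate phosphatase, had log2 ratios of 3.07 in WT and 3.96 in MG53-TG, and Plb1, a phospholipase of the brush border, 3.50 and 3.32. Over the 20 genes for lipid absorption and chylomicrons, all measured, the median log2 ratio was 1.37 in WT and 1.46 in MG53-TG, and 13 were higher by 1 or more in both, beside 7.92% of 9496 genes and their median of 0.13 and -0.12.

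Transporters and enzymes of the brush border made up another part of the 20 and of the lists. Slc6a19, the carrier of neutral amino acids, had log2 ratios of 3.26 in WT and 3.96 in MG53-TG, and Slc34a2, a phosphate carrier, 3.34 and 4.12. Slc25a22, which carries glutamate into mitochondria rather than across the apical membrane, had 3.29 and 3.96. Of 18 brush border enzymes, 15 were higher by 1 or more in both libraries, beside 7.92% of all genes, with medians of 1.80 and 2.32. The peptidase Mep1a had 204 CPM in WT tip enterocytes against 35.6 CPM elsewhere, and 367 against 24.9 CPM in MG53-TG. Of 16 genes for microvillus structure, 11 were higher in both libraries, beside the same 7.92%, with medians of 1.34 and 1.75.

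The oxidase Duox2, which makes hydrogen peroxide at the apical surface, and its maturation factor Duoxa2 were both among the 20. Duox2 reached 262 CPM in the WT and 608 CPM in the MG53-TG members, against 29.5 and 28.0 CPM elsewhere. Duoxa2 had 158 and 424 CPM against 18.9 and 16.9 CPM. Mxd1, a partner of Max that opposes Myc, had log2 ratios of 3.06 and 3.98, Noct, a relative of the circadian deadenylases, 3.24 and 4.08, and Itgb6, an integrin subunit of epithelium, 2.97 and 3.87. The remaining members of the 20 were Nckap5, Clca4b, Lhfpl2, 4930539E08Rik, Apol9a and Bst1, with log2 ratios from 3.04 to 3.38 in WT and 3.40 to 4.54 in MG53-TG. Xdh, which makes uric acid from purines, had log2 ratios of 2.13 and 2.78, but the 20 measured genes for purine and pyrimidine handling had medians of only 0.36 and 0.61, and 5 passed 1 in both libraries, beside 7.92% of all genes.

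**Figure D2:**
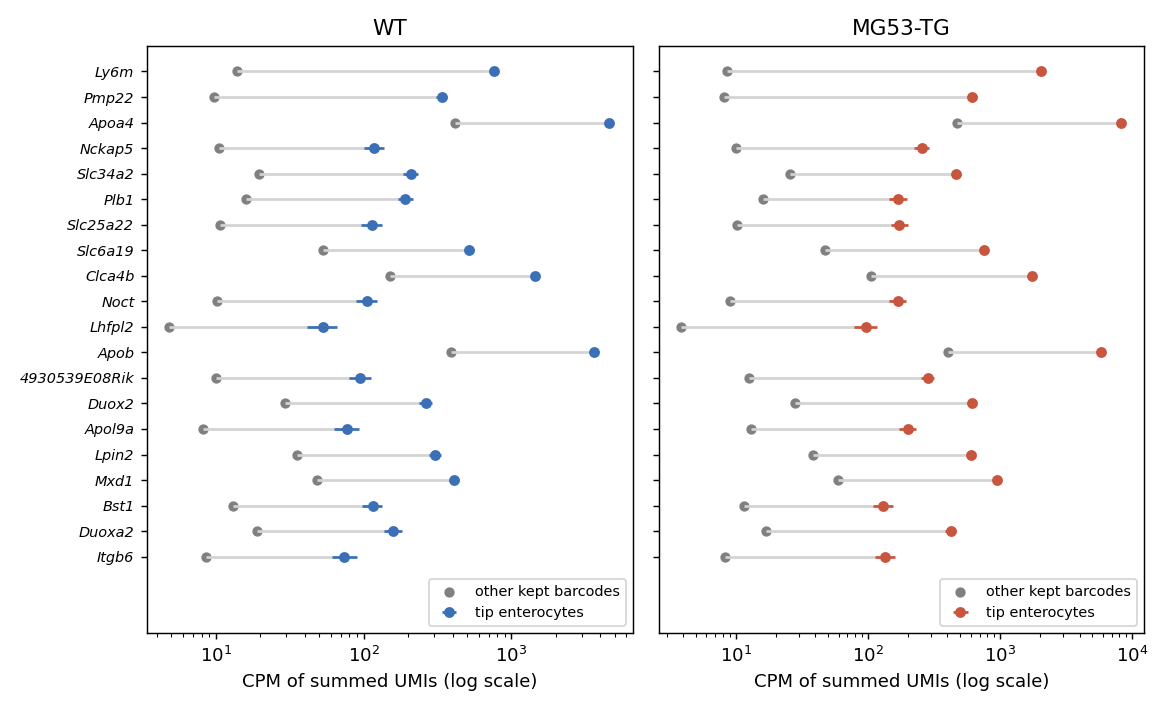
CPM of the summed UMIs (x axis, log scale) of the 20 genes outside the rule with the highest smaller ratio of the 2 libraries, in tip enterocytes (coloured points, bars are 95% Poisson intervals) and in the other kept barcodes (grey points), with a panel for each library. Ly6m and Pmp22 show the widest gaps, and Apoa4 and Apob the highest levels.

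The 10 lowest genes were led by products of other cell types. Spink4, a goblet cell product, was at 215 CPM in the WT members and 214 CPM in the MG53-TG members, against 9599 and 13410 CPM elsewhere. AY761184, a defensin-related gene, and Itln1, an intelectin of Paneth and goblet cells, had log2 ratios of -5.40 and -5.31 in WT and -5.61 and -5.60 in MG53-TG. The rule excluded cells rich in goblet and Paneth genes, so these ratios were set in part by it. Guca2a, the hormone guanylin, followed at -2.57 and -2.44. The other 6 were Selenom, Tm4sf4, Dynll1, Sh3bgrl3, S100a6 and Stard10, from -1.12 to -2.44 in WT and -1.13 to -3.81 in MG53-TG.

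A closer comparison was with 1333 WT and 1099 MG53-TG absorptive cells that carried at most 1 gate gene. Of 2241 genes, 212 (9.46%) were higher in tip enterocytes by 1 or more in both libraries and 41 (1.83%) lower. Ly6m again led, at 765 against 4.44 CPM in WT and 2041 against 3.30 CPM in MG53-TG. Cldn4, a claudin of tight junctions, had 78.4 against 0.99 CPM in WT and 278 against 0.90 CPM in MG53-TG. Enpp3, an ectonucleotidase of the brush border, had 110 against 4.13 CPM and 200 against 3.60 CPM. Lamb3, a laminin chain, Pmepa1, an inhibitor of TGF-beta signalling, and Itgb6 had log2 ratios of 3.21, 3.20 and 3.19 in WT and 3.87, 5.00 and 4.08 in MG53-TG. The stem cell gene Olfm4 and the histone gene Hist1h1b were also among the 10 highest, at log2 ratios of 5.13 and 3.75 in WT. They came from few cells, Olfm4 from 23 WT and 14 MG53-TG members and Hist1h1b from 18 and 6.

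The 5 lowest genes against those absorptive cells were Apol10a, 2210407C18Rik, Fahd1, Plac8 and Reg3b. Apol10a, of the apolipoprotein L family, had log2 ratios of -1.73 in WT and -1.59 in MG53-TG, 2210407C18Rik -1.58 and -3.07, and Fahd1, a mitochondrial enzyme, -1.51 and -1.90. Reg3b, an antimicrobial lectin, had 15800 CPM in WT tip enterocytes against 43686 CPM, and 7480 against 31044 CPM in MG53-TG. Plac8 had 1934 against 5458 CPM and 1397 against 5487 CPM. Slc2a2, the basolateral glucose carrier, had log2 ratios of -1.27 and -1.91, while Lct had 0.03 and -0.03. Of 12 measured villus base genes, 7 were lower by 1 or more in both libraries, beside 1.57% of 9496 genes, with medians of -1.15 and -1.93, beside 0.23 and 0.01 over all genes. Immediate early and heat shock genes went the other way, with medians of 0.98 and 1.81 over 13 genes. So did stem and crypt genes, at 1.76 and 2.25 over 10 genes, and cycling genes, at 2.81 and 1.39 over 12. In each list 7 were higher by 1 or more in both libraries, beside 9.12% of all genes. In the members with 4 or 5 gate genes stem and crypt genes were at 1.17 and 0.36, and cycling genes at 1.11 and 1.40. Over 17 lipid absorption genes the medians were -0.17 in WT and 0.11 in MG53-TG, and 0.52 and 0.10 in the members with 4 or 5 gate genes. The absorptive cells were chosen by genes that include Fabp1, Fabp2 and Apoa1, so lipid gene levels there depend on that choice.

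Levels also differed with the number of gate genes after each barcode was thinned to the UMI minimum, so that depth no longer set the number detected. In WT, lipid absorption genes stood at 19150 CPM in the 3246 barcodes with no gate gene, 80141 CPM in the 47 with 2, and 84392 CPM in the 15 with 5. In MG53-TG they stood at 25332, 77746 and 78808 CPM in 2009, 41 and 17 barcodes. Most of the difference thus lay between 0 and 2 gate genes. Immediate early and heat shock genes went from 287 to 1241 and 1871 CPM in WT, and from 350 to 1549 and 2259 CPM in MG53-TG. Brush border enzymes peaked at 2 gate genes in both libraries, at 13985 CPM (WT) and 12609 CPM (MG53-TG), and were at 8370 and 7777 CPM with all 5. Cycling genes stood at 785 CPM with no gate gene and 126 CPM (8 UMIs) with 2 in WT, and at 656 and 162 CPM (9 UMIs) in MG53-TG. The barcodes with all 5 gate genes, under 20 in each library, held 1 cycling UMI in WT and 0 in MG53-TG, and a count of 0 allows up to 130 CPM there.

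**Figure D3:**
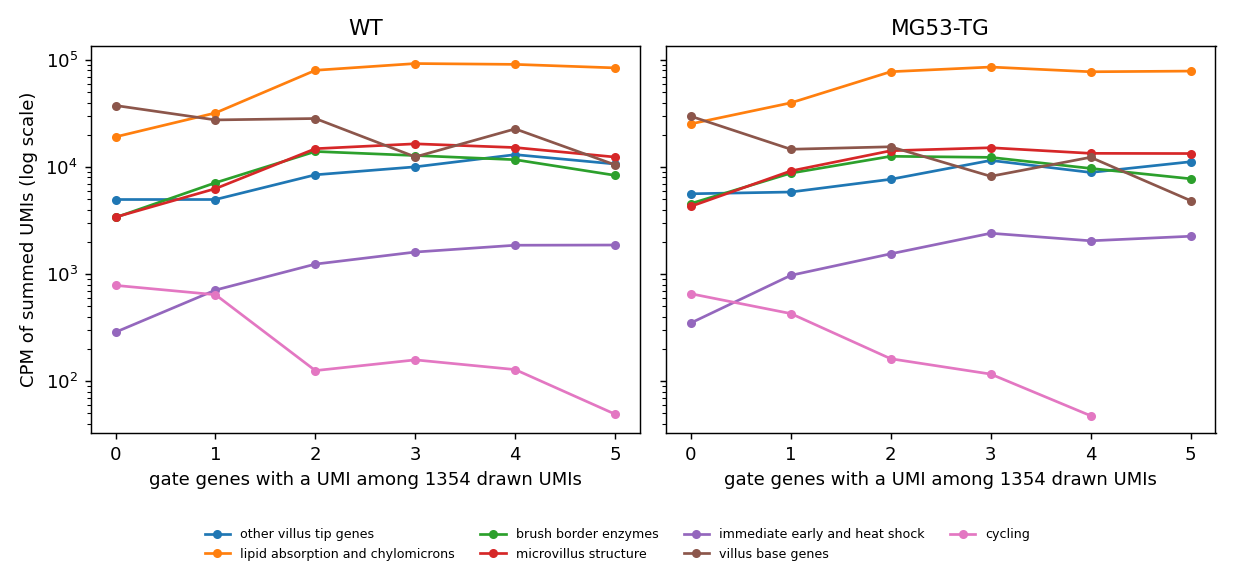
CPM of the summed UMIs of 7 gene lists (y axis, log scale) against the number of gate genes detected after each barcode was thinned to the UMI minimum, with a panel for each library. Lipid, brush border and microvillus genes are higher with 2 gate genes than with 0 in both libraries, and cycling genes lower, on few UMIs from 2 gate genes on; the MG53-TG point for cycling genes at 5 gate genes is 0 and is not drawn.

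Ribosomal protein mRNA took a low share in most tip enterocytes, a pattern noticed after the values were seen. Low shares were also found in barcodes high in mitochondrial UMIs and in part of the shallow absorptive cells. These 97 genes encode the protein parts of the ribosome and usually take a large share of a cell's mRNA. They took a median of 1.09% of UMIs per WT tip enterocyte (lower and upper quartile 0.857% and 12.6%) and 0.685% per MG53-TG tip enterocyte (0.494% and 1.07%), against 18.3% and 16.8% in the other kept barcodes. At or under 2% were 83 of the 123 WT and 102 of the 117 MG53-TG members. Absorptive cells with few gate genes had medians of 12.1% and 10.7%.

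Depth differed along with this share, and its part was not tested. Under 10000 UMIs, tip enterocytes had medians of 0.960% in WT and 0.621% in MG53-TG, the absorptive cells with few gate genes 2.0% and 1.70%, and all other kept barcodes 13.6% and 8.46%. The deep tip members had 20.6% in WT and 9.99% in MG53-TG. Barcodes above the mitochondrial limit had low shares whether or not they met the gate, 0.540% and 0.393% with it and 0.889% and 0.701% without it. At or under 2% were 50% of the WT and 53.7% of the MG53-TG absorptive cells with few gate genes under 10000 UMIs, and 77.8% and 82.5% of the barcodes above the mitochondrial limit that did not meet the gate. Among all other kept barcodes under 10000 UMIs they were 22.4% and 27.4%, and among tip enterocytes under 10000 UMIs 92.9% and 100%.

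**Figure D4:**
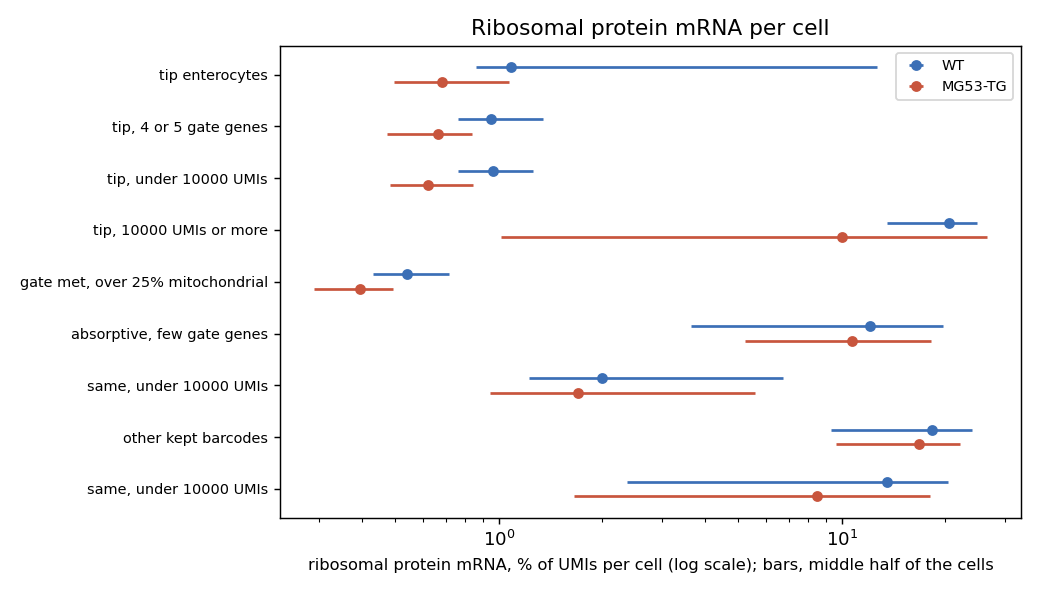
Median share of UMIs from 97 ribosomal protein genes per cell (x axis, log scale) in each class of barcodes and library; bars span the lower to the upper quartile of the cells. Shallow tip enterocytes sit near 1% or below, and the other kept barcodes near 17 to 18%, with shallow absorptive and shallow other kept barcodes in between. Barcodes that met the gate above the mitochondrial limit sit lowest, at 0.540% in WT and 0.393% in MG53-TG.

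The share of tip enterocytes was compared between the libraries as a description of these 2 preparations. Tip enterocytes were 1.66% of kept WT barcodes (1.38% to 1.98%) and 2.27% of kept MG53-TG barcodes (1.88% to 2.72%). The difference was 0.609 percentage points (0.119 to 1.13). It was 0.240 points without the Fabp6 limit, where 156 WT and 121 MG53-TG barcodes met the rule, and 0.339 points with 2 gate genes enough. With no limit on goblet, Paneth, Cd3 or Fabp6 genes, a setting added after the data were seen, 225 WT and 150 MG53-TG barcodes had 3 gate genes (3.04% and 2.91%) and the difference turned to -0.129 points. Its direction therefore depended on the excluded genes. The mitochondrial limit set much of both shares, since another 204 WT and 313 MG53-TG barcodes met every other part of the rule with more than 25% mitochondrial UMIs. With no such limit, a setting added after the data were seen, 327 of 11156 WT and 430 of 9555 MG53-TG barcodes (2.93% and 4.5%) met the rule. With 1 library per genotype the spread between mice is unknown.

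Trim72 was read first, since it checks the labels. It had 2 UMIs in 1 of the 123 WT tip enterocytes and 104 UMIs in 48 of the 117 MG53-TG tip enterocytes, or 1.43 and 105 CPM, and a log2 ratio of 5.46 on the scale of CPM plus 1. The counting interval of the ratio without that added CPM was 4.32 to 9.27. In the other kept barcodes Trim72 had 0.57 and 49.8 CPM. Both genotype labels were matched by these counts.

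Within tip enterocytes, 3075 genes had at least 30 UMIs and 50 CPM in 1 of the libraries. Of these 166 (5.4%) were higher in MG53-TG by a log2 ratio of 1 or more and 126 (4.1%) lower by as much. The counts moved strongly with which members were summed. Among members with 4 or 5 gate genes 77 were higher and 80 lower of 2917 genes, and among members under 10000 UMIs 86 and 242 of 2713. Of the 166 and 126, 39 and 33 also passed in the members with 4 or 5 gate genes, with 2722 genes past the minimums in both.

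Interferon response genes were higher in MG53-TG tip enterocytes in each of the 4 views of the members given here. These genes are switched on by type I and III interferons through signalling that includes Irf9 and restrict viruses. Of 12 genes on the list, 10 had at least 10 UMIs, and 8 of them had a log2 ratio of 0.5 or more, beside 16.8% of 9519 genes, and 0 of -0.5 or less, beside 29.5%. The median was 1.65, against -0.12 over all genes. It was 1.27 with each cell weighted equally and 1.25 under 10000 UMIs. With 4 or 5 gate genes it was 1.03, and 9 of 10 genes passed 0.5, beside 18.9% of all genes, and 0 passed -0.5, beside 20.1%. In the other kept barcodes the median was 0.50, with 6 of 12 genes at 0.5 or more, beside 445 of 17089 genes. In absorptive cells with few gate genes it was 0.43, with 5 of 12, beside 627 of 13344. In both classes 0 were at -0.5 or less, beside 232 and 185 of all genes. In the 204 WT and 313 MG53-TG barcodes that met the rule but for the mitochondrial limit the median was 0.29. There 3 of 8 measured genes were at 0.5 or more, beside 1282 of 7487 genes, and 0 at -0.5 or less, beside 968. Other lists also stayed above 0 in the 4 views. Immediate early and heat shock genes had 1.09 over all members, 0.36 with each cell weighted equally, 0.32 under 10000 UMIs and 0.49 with 4 or 5 gate genes, and -0.08 above the mitochondrial limit. Apoptosis and shedding genes had 0.53, 0.31, 0.18 and 0.21, and 0.11 above the limit. Tuft genes had 0.52 and 0.95 over 7 genes, and 2.48 and 2.14 on 1 measured gene.

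Isg15, a ubiquitin-like modifier, had 23 UMIs among the WT members, 139 among the MG53-TG members, or 16.4 CPM (10.4 to 24.6) and 141 CPM (119 to 166). It was detected in 12.2% of WT members (6.99% to 19.3%) and 41.9% of MG53-TG members (32.8% to 51.4%), at like median depth. The log2 ratio was 3.03, and 0.76 in the other kept barcodes, where Isg15 had 17.6 and 30.6 CPM. Ifit1, which binds foreign RNA, was detected in 14 WT and 28 MG53-TG cells, at 13.6 and 86.2 CPM.

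Irf7, the transcription factor that amplifies the response, went from 87.0 CPM in WT to 272 CPM in MG53-TG, detected in 69 and 86 cells. Oasl2, an oligoadenylate synthetase-like protein, had 43.5 and 155 CPM, in 42 and 70 cells. Ddx60, an RNA helicase, and Zbp1, a sensor of Z-form nucleic acid, had log2 ratios of 1.37 and 1.67. Irf1 at 0.43 and Bst2 at 0.32 (interval -0.52 to 1.19) were the measured members under 0.5, and Irf1 was at -0.14 in members with 4 or 5 gate genes. Ifit2 and Ifit3 had under 10 UMIs.

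The signal was unevenly spread over cells. The 3 richest cells held 32.4% of the Isg15 UMIs and 40.0% of the Ifit1 UMIs in MG53-TG, and 34.8% and 36.8% in WT. For Irf7 the shares were 11.2% and 10.7%, so that its counts were spread over more cells.

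The promoters of interferon genes are known to carry paired GAAA motifs bound by interferon factors. The 200 bases before the start were searched on both strands for GAAANNGAAA, with overlapping matches joined. It was present for 6 of the 10 list genes found in the RefSeq promoter table and for 2.65% of all 27025 genes in it. Isg15 and Ifit1, the list members with the largest ratios among those with at least 30 UMIs and 50 CPM, are shown beside Irf7, whose window had none; matches are in capitals, and TTTCNNTTTC is the same motif on the other strand.
Isg15, chr4:156200819-156201018, minus strand, GRCm38.p6: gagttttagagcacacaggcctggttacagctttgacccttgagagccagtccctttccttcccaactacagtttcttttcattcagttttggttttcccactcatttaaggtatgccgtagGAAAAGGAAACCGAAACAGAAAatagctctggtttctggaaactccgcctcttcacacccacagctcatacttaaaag
Ifit1, chr19:34640689-34640888, plus strand, GRCm38.p6: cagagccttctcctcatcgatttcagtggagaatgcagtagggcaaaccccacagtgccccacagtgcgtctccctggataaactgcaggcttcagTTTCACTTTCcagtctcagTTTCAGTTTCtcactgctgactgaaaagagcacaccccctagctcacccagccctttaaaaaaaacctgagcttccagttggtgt
Irf7, chr7:141266425-141266624, minus strand, GRCm38.p6: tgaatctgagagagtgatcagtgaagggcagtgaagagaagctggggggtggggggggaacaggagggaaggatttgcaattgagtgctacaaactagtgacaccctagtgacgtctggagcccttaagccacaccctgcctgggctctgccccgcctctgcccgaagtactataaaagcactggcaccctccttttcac
Isg15 held 3 overlapping matches from 78 to 57 bases before the start, and Ifit1 2 separate ones. The matches are descriptions of sequence and were not tested as binding sites.

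Among the 12 genes with the highest ratios, Ifit1bl1, Slfn4, Rsad2 and Ubd are also known to respond to interferons. They are not on the list and were picked out after their values were seen, so they add no support to it. Ly6e, likewise known as interferon-inducible, was among the 12 lowest, at -1.99. Ifit1bl1, an Ifit1-like gene that may share reads with its neighbours, had 39 and 240 UMIs and a log2 ratio of 3.08, and was detected in 24 WT and 57 MG53-TG cells. Slfn4, a Schlafen gene, had 9 and 60 UMIs (3.06). Rsad2 (viperin) had 16 and 64 UMIs (2.41), and Ubd, a ubiquitin-like gene induced by interferon gamma and TNF, 34 and 177 UMIs (2.84). Their ratios with 4 or 5 gate genes were 2.44, 3.15, 1.31 and 1.91.

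The other genes among the 12 highest were of mixed kinds. Atf3, a stress-induced transcription factor, went from 34.2 CPM in WT to 138 CPM in MG53-TG, detected in 23 and 52 cells. By number of gate genes it had 7.54 and 86.3 CPM with 3, 55.4 and 115 CPM with 4, and 143 and 227 CPM with 5. Upp1, which splits uridine, was at 75.6 and 289 CPM. Lama3, a laminin chain, had a log2 ratio of 1.92, and 1.17 with 4 or 5 gate genes. Slc6a14, a carrier of neutral and basic amino acids, had 15 UMIs in 4 WT cells, 93.3% of them in 3 cells, and 62 UMIs in 18 MG53-TG cells. Nt5e had 111 and 481 CPM, a log2 ratio of 2.10, but is part of the rule. The other 4 gate genes had ratios of 0.94 to 1.14, and 0.32 to 0.41 with 4 or 5 gate genes.

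Most of the 12 lowest genes were products of other cell types or of dividing cells, and many rested on few WT cells. Reg4, Chga and Chgb, genes of enteroendocrine and related secretory cells, had 265, 141 and 247 UMIs among the WT members, and 2, 2 and 7 among the MG53-TG members. The 3 richest WT cells held 94.3%, 89.4% and 95.5% of these UMIs. Reg1 had 1232 and 172 UMIs, 83.3% of the WT ones in 3 cells, and a log2 ratio of -2.33 that became 0.23 with 4 or 5 gate genes. The mitosis genes Cdc20, Kif23, Cenpa and Ube2c had -2.18, -2.02, -1.73 and -1.72, and Kif23 was at 0.99 with 4 or 5 gate genes. Ly6e, a surface protein of the Ly6 family, was detected in 31 WT and 11 MG53-TG cells.

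The Paneth defensins Defa21 and Defa22 and the defensin-like Gm14851 were lower in MG53-TG at -2.66, -1.73 and -1.76. They were also lower in the other kept barcodes, at -1.71, -1.60 and -1.06. The Defa genes are near-identical copies whose reads the counting may split, and the rule capped their share. The Paneth list summed to 1621 CPM in the WT members, 727 CPM in the MG53-TG members, and to 60822 and 39508 CPM in the other kept barcodes.

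The tip program itself gave no stable difference between the genotypes. The 19 other villus tip genes had a median log2 ratio of 0.74 in the sums over all members, with 12 at 0.5 or more, beside 16.8% of all genes. The median was 0.09 with each cell weighted equally, 0.11 with 4 or 5 gate genes and -0.06 under 10000 UMIs. Brush border enzymes went from 0.64 to 0.07, 0.06 and -0.04 in the same order, microvillus genes from 0.56 to 0.11, 0.03 and -0.02, and lipid absorption genes from 0.51 to -0.05, -0.07 and -0.22. Apoa4 had a log2 ratio of 0.85 over all members and 0.04 with each cell weighted equally. Fabp1, the liver-type fatty acid binding protein, had -0.48 and -1.10.

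Villus base genes were lower in MG53-TG tip enterocytes in the 4 views, with a median of -0.84 over 12 genes. Of these 11 were at -0.5 or less, beside 29.5% of all genes, and 0 at 0.5 or more, beside 16.8%. The median was -1.09 with each cell weighted equally, -0.66 with 4 or 5 gate genes and -0.67 under 10000 UMIs, against -0.10 in the other kept barcodes. It was closer to 0 with 2 gate genes enough (-0.37) and with the gate applied after thinning (-0.050). In the barcodes above the mitochondrial limit that met the rest of the rule it was -0.22. There 3 of 10 genes were at -0.5 or less, beside 968 of 7487 genes, and 0 at 0.5 or more, beside 1282. Reg3b went from 15800 CPM in WT to 7480 CPM in MG53-TG, and Reg3g, its close relative, from 5547 to 3480 CPM, and both were also lower in the other kept barcodes, at -0.58 and -0.61.

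The study concerns PPAR-alpha, a fatty acid sensor that drives fatty acid oxidation. Its gene Ppara had 19 UMIs among the WT members, 9 among the MG53-TG members, a log2 ratio of -0.52 (interval -1.90 to 0.64), which these counts do not separate from 0. The 25 measured PPAR targets and fatty acid oxidation genes had a median of -0.21, with 3 at 0.5 or more and 8 at -0.5 or less, shares near the 16.8% and 29.5% of all genes, and medians of -0.50 with each cell weighted equally, -0.40 under 10000 UMIs and -0.18 with 4 or 5 gate genes.

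**Figure D5:**
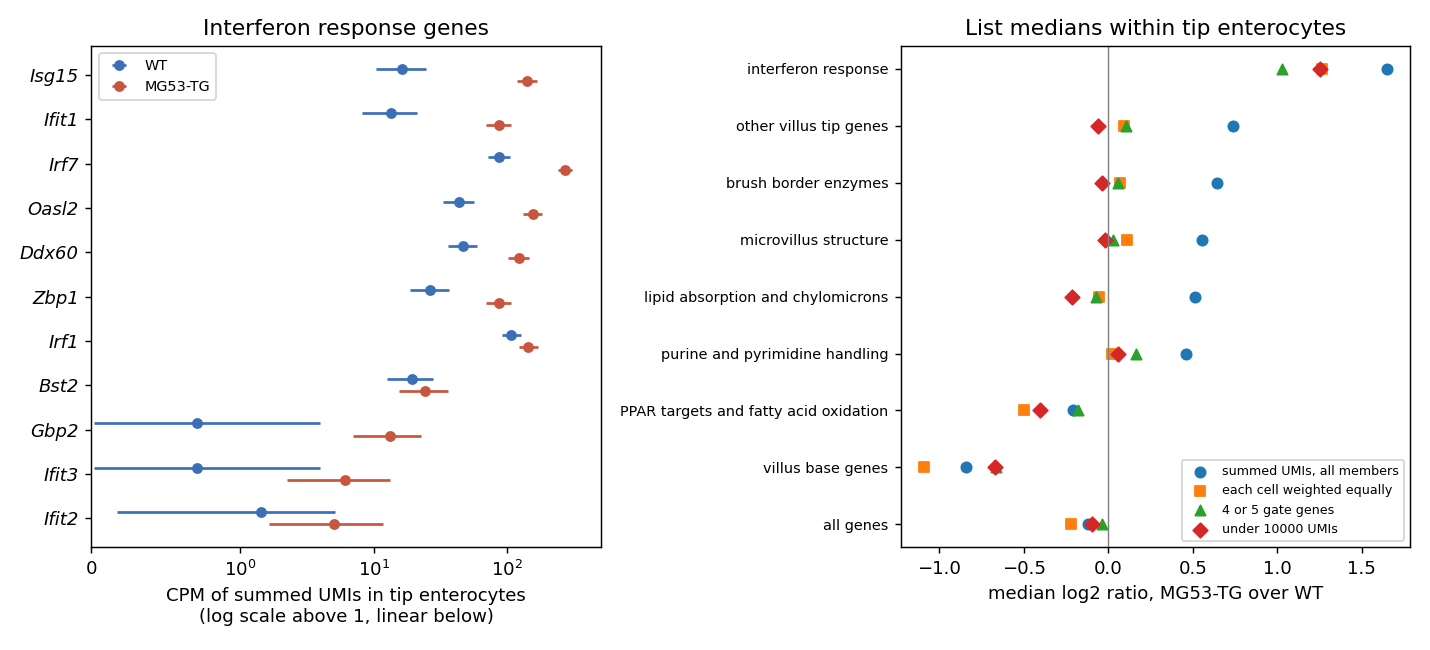
Left, CPM of the summed UMIs (log scale above 1, linear below) of genes of the interferon response list in tip enterocytes of each library, with 95% Poisson intervals. Right, the median log2 ratio of MG53-TG over WT for 8 lists and all genes under 4 ways of summing the members: the interferon list lies above 1 in each, villus base genes below -0.6, and the tip, brush border, microvillus and lipid lists lie between -0.22 and 0.11 outside the plain sums.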

How the data were processed

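UMI counts per gene and barcode were deposited by the authors as raw, unnormalised counts, made with Cell Ranger 4 (WT) and cellranger-6.0.1 (MG53-TG). The submitters' processing notes name mm10 and Seurat. The WT matrix held 2005718 barcodes, most of them empty, and the MG53-TG matrix 12361, none under 500 UMIs. Of 32285 gene identifiers, 99.6% matched GENCODE M21 (GRCm38), the source of gene coordinates.

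Barcodes were filtered and chosen as the report states. The members and gene lists were chosen with earlier results of these data known. Counts were summed over members and scaled to parts per 1000000 (CPM). Ratios are log2 of CPM plus 1. Genes between genotypes needed 30 UMIs in all and 50 CPM in 1 library, and list members 10 UMIs. Intervals are Clopper-Pearson for shares, exact Poisson for sums, exact conditional binomial for ratios and Newcombe for the difference of shares. Cells are not replicates, so no test was run and no p-value is given.

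Named genes were the 20 highest and 10 lowest against all other kept barcodes (at least 50 tip UMIs in all and 50 CPM in each library's members, ranked by the less extreme library), the 10 highest and 5 lowest against absorptive cells with at most 1 gate gene (a set of absorptive genes that includes Fabp1, Fabp2, Alpi, Sis and Apoa1 at 1% of UMIs or more together), the 12 highest and 12 lowest between genotypes without mitochondrial and sex-linked genes, and list members. Some genes that entered the counts and medians are not reported here by name. A ranking against cells with the gate genes and Fabp6 was left out, because MG53-TG had 4 such cells. Doublets were not removed in the main results. Scrublet's own threshold (scanpy) marked 1 WT and 2 MG53-TG barcodes and so had not worked, and the alternative removed the highest scores instead. The calculations were tested on simulated data and used Python with numpy, scipy and scanpy.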

Additional observations from a re-analysis of the deposited data

Results flagged for a closer look

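3 genes outside the rule went opposite ways between the genotypes, up in the MG53-TG tip enterocytes by a log2 ratio of 1 or more and down in the other kept barcodes by 0.5 or more. Chosen by these values, each difference rests on 1 library per genotype and was not tested. Slc6a14 had a log2 ratio of 2.45 in tip enterocytes, from 15 UMIs in 4 WT cells and 62 UMIs in 18 MG53-TG cells, and -0.94 in the other kept barcodes, from 207 and 42 UMIs. Ly6m had 1.41 in tip enterocytes and -0.63 elsewhere, where its level went from 13.9 CPM in WT to 8.61 CPM in MG53-TG. Among members with exactly 3 gate genes, MG53-TG had 922 CPM of Ly6m against 157 CPM for WT. In proportion the gap was smaller with 4 gate genes (1798 against 1679 CPM) and with 5 (3722 against 2462 CPM). The Ly6m ratio in tip enterocytes thus depended on the number of gate genes. Fgf15, the bile acid hormone of the ileum, had 1.30 in tip enterocytes, where 13.8% of the WT members and 13.7% of the MG53-TG members had a UMI, and -0.68 elsewhere, at 2.87 and 1.42 CPM. The rule moves cells rich in tip genes out of the other barcodes, so the levels there depend on it.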

How the results depend on the processing

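Each alternative changed 1 choice at a time, except that the limits on excluded genes were dropped together, as were the UMI and CPM minimums. The share of tip enterocytes was larger in MG53-TG under all of them except with no limit on the excluded genes, added after the data were seen, where the difference of 0.609 points turned to -0.129. It left its own interval also at a mitochondrial limit of 50% (1.69 points) and with no limit (1.57, added after the data were seen). Without the Fabp6 limit it was 0.240. The counts of genes, 166 higher and 126 lower of 3075, were not stable, and the cause was not tested. The number of genes past the minimums changed too, to 5807 at 20 CPM, 13555 with any UMI enough and 1472 with members thinned. The higher and lower counts were 25 and 12 with 2 gate genes enough, 77 and 80 with 4 required, 28 and 451 at a limit of 50%, 23 and 431 with no limit, 91 and 81 without the Fabp6 limit, 83 and 64 without Ada in the gate, 86 and 242 under 10000 UMIs (added after the depths were seen), 106 and 270 with each cell weighted equally, 277 and 328 at 20 CPM, 1368 and 1518 with any UMI enough, and 559 and 679 at a smaller fold. The higher count alone moved to 79 with the gate applied after thinning, 104 without Slc23a4 in the gate and 64 with members thinned, and the lower count to 408 without Slc28a2. The median of the other villus tip genes (0.74) was 0.32 with 2 gate genes enough, 0.11 with 4, 0.066 with the gate after thinning, 0.32 at a limit of 50%, 0.25 with no limit, 0.49 without the Fabp6 limit, 0.067 without Ada, 0.28 without Slc23a4, -0.058 under 10000 UMIs, 0.093 with cells weighted equally and 0.073 with members thinned. The interferon median (1.65) was 1.03 with 2 and 1.03 with 4 gate genes, 0.68 with the gate after thinning, 0.97 at 50%, 0.92 with no limit and 1.01 without Ada, and was above 0 under all of the alternatives run. Ratios and list medians of 1 or more in size that changed sign were Reg4 (0.95), Chga (0.41), Chgb (0.94) and Cenpa (0.079) with 2 gate genes; Chgb (0.54) at a limit of 10%; Reg1 (0.23) and Kif23 (0.99) with 4; Reg1 (2.81) and Kif23 (3.77) with the gate after thinning; Reg1 (0.23) and Kif23 (0.88) without Ada; Kif23 (0.50) and Cenpa (0.22) without Slc23a4; Cenpa (0.53) under 10000 UMIs; and the B and plasma cell list, of 2 measured genes, at 50% (0.33) and with no limit (0.29). List medians under 1 in size changed sign too, among them cycling genes (-0.95, and 0.42 with 4 gate genes). Over the named genes 14 of 720 repeats changed sign from a ratio of 1 or more in size. Another 293 left the counting interval of the main ratio, and 413 stayed within it. Smaller ratios that changed sign fall under these last counts. No paired analysis was possible because each genotype had 1 library.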
